A study of Homo sapiens with 12 samples.

Results

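Splicing after knockdown of PRMT1 was set against splicing after knockdown of PRMT7, directly and without the control, in HEK293T, a human line of embryonic kidney origin that carries the SV40 large T antigen. The comparison covers the 10358 splicing events, of 16199 listed by MISO, that have a value in all 7 columns of the table: the scramble control and the knockdowns of PRMT1, PRMT3, PRMT4, PRMT5, PRMT6 and PRMT7. The PRMT1 group comprises 2 poly(A) RNA libraries, from hairpins sh1 and sh3, and the PRMT7 group 2 libraries, from hairpins sh2 and sh3. All lines carried a stable lentiviral short hairpin, including the single scramble library. The table holds 1 value per target, so each PSI below is 1 deposited number without an SD or a replicate behind it, and differences carry no test. Whether a difference exceeds the spread between hairpins cannot be told from it.

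PRMT1 is the main enzyme that places asymmetric dimethylarginine on proteins, much of it on the arginine and glycine rich stretches of RNA-binding proteins. PRMT7 adds a single methyl group to arginine and makes no dimethylarginine. Many splicing factors, among them hnRNPs, SR proteins and the FET protein EWSR1, carry methylated arginines, and the series addresses what loss of each enzyme does to splicing. The unit is PSI (percent spliced in), on a scale from 0 to 1: of the transcripts of an event, the part with the inclusive form. For a cassette exon this is the form with the exon, and for a retained intron the form that keeps the intron. All differences are PRMT1 minus PRMT7, and an event is called differing where the size is at least 0.1 PSI. A positive value means a higher PSI in PRMT1 knockdown, which is more inclusion except for mutually exclusive exons. There both forms include an exon, so higher and lower refer to the PSI value only.

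Some coding cassette exons that differed past this size in both deposited tables are shown first, because there the untested difference in PSI falls on coding sequence. They are a part of the set: exons of LRP8, NRM, KIAA0408 and MYBL1, among others, also passed and are not printed. Every one printed spans whole codons. Capitals mark the alternative exon, and lower case marks the 15 bases of the coding sequence on either side of it in the spliced transcript. The letters are from GENCODE release 29 transcripts, where the exon was found by its gene, strand, length and both neighbouring intron lengths. The coordinates on these lines are GRCh38, while all others in the text are GRCh37. The first 3 exons were included less in PRMT1 than in PRMT7 knockdown and the others more.
BPTF upstream exon (chr17:67875556-67875744, + strand): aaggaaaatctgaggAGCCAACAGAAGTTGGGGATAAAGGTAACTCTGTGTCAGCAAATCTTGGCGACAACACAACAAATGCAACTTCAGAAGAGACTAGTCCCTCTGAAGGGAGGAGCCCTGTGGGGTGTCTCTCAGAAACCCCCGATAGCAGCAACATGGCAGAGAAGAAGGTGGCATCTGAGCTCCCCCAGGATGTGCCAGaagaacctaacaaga
BPTF downstream exon (chr17:67963333-67963506, + strand): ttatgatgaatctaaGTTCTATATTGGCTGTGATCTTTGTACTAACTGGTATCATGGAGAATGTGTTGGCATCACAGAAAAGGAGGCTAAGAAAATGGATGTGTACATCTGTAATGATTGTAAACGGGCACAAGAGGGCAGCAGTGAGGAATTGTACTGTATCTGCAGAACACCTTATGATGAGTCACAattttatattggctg
FLNA exon (chrX:154357251-154357274, - strand): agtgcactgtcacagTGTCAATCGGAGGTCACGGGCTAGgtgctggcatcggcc
ZNF195 exon (chr11:3360720-3360788, - strand): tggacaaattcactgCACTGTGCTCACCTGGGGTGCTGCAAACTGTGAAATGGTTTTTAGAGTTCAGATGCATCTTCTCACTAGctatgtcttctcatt
CALD1 exon (chr7:134935688-134935765, + strand): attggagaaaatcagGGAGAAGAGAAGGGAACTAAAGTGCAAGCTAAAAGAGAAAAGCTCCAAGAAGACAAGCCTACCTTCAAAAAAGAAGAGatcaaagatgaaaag
AMBRA1 exon (chr11:46512727-46512813, - strand): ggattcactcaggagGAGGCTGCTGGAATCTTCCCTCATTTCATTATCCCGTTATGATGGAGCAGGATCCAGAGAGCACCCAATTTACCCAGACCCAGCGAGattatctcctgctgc
DDHD1 exon (chr14:53051844-53051927, - strand): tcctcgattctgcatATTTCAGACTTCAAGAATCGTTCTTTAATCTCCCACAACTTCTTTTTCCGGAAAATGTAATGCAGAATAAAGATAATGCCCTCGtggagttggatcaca
PLEKHM2 exon (chr1:15721329-15721388, + strand): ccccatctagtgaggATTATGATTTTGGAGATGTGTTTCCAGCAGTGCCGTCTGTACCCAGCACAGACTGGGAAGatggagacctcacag
The printed exons range from 24 bases, or 8 codons, in FLNA to 189 bases, or 63 codons, in the upstream exon of BPTF. Their GC content runs from 35.7% in DDHD1 to 58.3% in FLNA.

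In all, 736 of the 10358 events (7.11%) differed by at least 0.1 PSI between the knockdowns, 358 higher (3.46%) and 378 lower (3.65%) in PRMT1. They lie in 635 of 5006 genes (12.7%), with a higher event in 6.51% of genes and a lower one in 6.71%. Most were small: 86 reached 0.2 and 10 reached 0.3, and the median size over all events was 0.01. Many events sat at the threshold: 79 events stood at exactly 0.10 and 80 at 0.09 on the higher side, with 71 and 91 on the lower side. The share of events that differed was highest in the middle of the scale, at 30.3% of the 912 events with a mean PSI from 0.3 to 0.7 and 1.24% of the 4768 events above 0.9. Some describe the same splice choice with other outer exons, and the 736 events hold 711 distinct alternative parts.

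**Figure D1:**
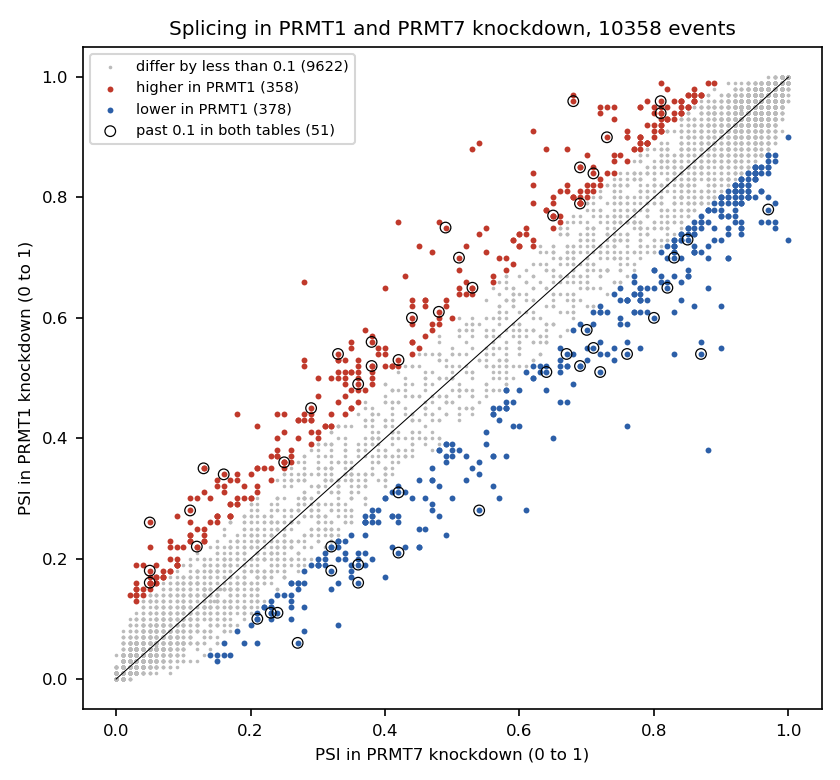
PSI in PRMT1 knockdown (vertical axis, 0 to 1) against PSI in PRMT7 knockdown (horizontal axis, 0 to 1), with 1 point per event. Red points are the 358 events higher and blue points the 378 lower in PRMT1 by at least 0.1, grey points differ less, and circles mark the 51 that pass 0.1 in the same direction in both deposited tables.

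By event type, the balance between directions differed. Among 6050 cassette exons 6.15% differed, of which 200 were higher and 172 lower in PRMT1, so that 46.2% were lower (95% exact Clopper-Pearson interval 41.1 to 51.5). Retained introns had the largest share of differing events, 122 of 1152 or 10.6%, with 43 higher and 79 lower, or 64.8% lower (55.6 to 73.2). Their median of mean PSI was 0.506, against 0.907 for cassette exons, and events in the middle of the scale differed most often. Whether this level accounts for the larger share was not tested. Alternative 3' splice sites (6.96% differing) had 45 higher and 37 lower, alternative 5' splice sites (9.06%) 45 and 49, and mutually exclusive exons (7.02%) 25 and 41, each with an interval that includes 50%. These intervals reflect event counts alone, while several events can come from a single gene and its reads.

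**Figure D2:**
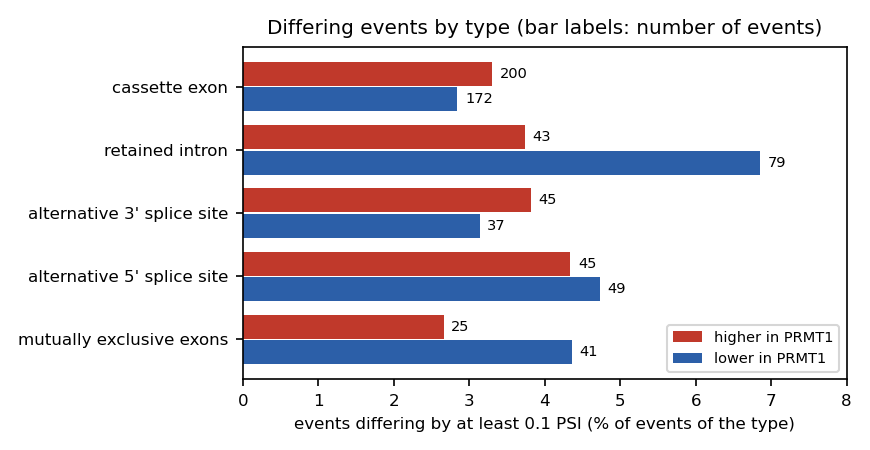
Events differing by at least 0.1 PSI as a percentage of all events of the type (horizontal axis), for 5 event types, with the number of events at each bar. Retained introns have the longest bar, 79 events lower in PRMT1 against 43 higher.

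The chromatin remodeller gene BPTF, which encodes the large subunit of NURF and reads histone modifications, had 4 differing events. Its upstream exon (chromosome 17, 65871672 to 65871860) stood at 0.54 in PRMT1 and 0.87 in PRMT7 knockdown, at 0.59 in scramble, and at 0.90, 0.52, 0.93 and 0.68 in the knockdowns of PRMT3, PRMT4, PRMT5 and PRMT6. The values split into a low set of scramble, PRMT1, PRMT4 and PRMT6 and a high set of PRMT3, PRMT5 and PRMT7. Its downstream exon (65959449 to 65959622) stood at 0.51 in PRMT1 and 0.72 in PRMT7 knockdown, at 0.58 in scramble, and at 0.84, 0.63, 0.88 and 0.52 in the others in the same order. PRMT1 was the lowest column here, next to PRMT6, and PRMT3 and PRMT5 lay above PRMT7. The differences, -0.33 and -0.21 by MISO, were -0.102 and -0.124 in the authors' deposited table of rMATS differences. An alternative 5' splice site of BPTF (65942013 to 65942441) went the other way, at 0.49 in PRMT1 against 0.36 in PRMT7 knockdown and 0.18 to 0.30 elsewhere, with 0.113 in the authors' deposited table. There PRMT1 was the highest of the 7 columns and PRMT7 the next.

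Other chromatin genes differed in both directions. A list of 44 measured remodellers and acetylation genes had 9 genes (20.5%) with a differing event, against 12.7% over all genes, 5 with a higher and 5 with a lower event. CHD8, a CHD family helicase, had a long alternative 5' splice site form at 0.62 in PRMT1 and 0.90 in PRMT7 knockdown, with scramble at 0.89 and the other knockdowns at 0.78 to 0.91. PRMT1 was the column that stood apart there, and the authors' deposited table gave -0.076. Exons of BAZ1A, a subunit of ISWI complexes, stood at 0.95 and 0.97 in PRMT1 against 0.78 and 0.86 in PRMT7 knockdown, but the authors' deposited table gave only 0.021 and 0.004. Of 13 differing events of this list that were matched in the authors' deposited table, 11 had the same sign there.

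Histone and DNA methylation enzymes had 7 of 34 genes (20.6%) with a differing event, against 12.7% of all genes, 5 higher and 2 lower in PRMT1. By event the share was 8.43% against 7.11%, near that over all events. An exon of 82 bases in KDM5A, an H3K4 demethylase (chromosome 12, 395292 to 395373), stood at 0.54 in PRMT1 and 0.33 in PRMT7 knockdown, at 0.35 in scramble and at 0.26 to 0.48 in the other 4. It is annotated in noncoding transcripts only. The authors' deposited table gave 0.108 for it. A coding exon of 48 bases in KMT2D, an H3K4 methyltransferase, stood at 0.27 and 0.09, with scramble at 0.15 and the others at 0.11 to 0.28, and at 0.089 in the authors' deposited table. For RBBP5, a subunit shared by H3K4 methyltransferase complexes, MISO gave 0.56 and 0.76 at an alternative 5' splice site, whereas the authors' deposited table had the opposite sign, 0.053. Exons of DNMT3B and KDM6A, at 0.11 and 0.10 by MISO, also had the opposite sign in the authors' deposited table, at -0.04 and -0.009.

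Exons included more in PRMT1 than in PRMT7 knockdown came from genes of several functions. The exon of ANK2, an ankyrin that ties membrane proteins to spectrin (chromosome 4, 114295920 to 114296102), stood at 0.75 in PRMT1 and 0.49 in PRMT7 knockdown, at 0.48 in scramble, and at 0.49, 0.61, 0.74 and 0.54 in the knockdowns of PRMT3, PRMT4, PRMT5 and PRMT6. PRMT1 and PRMT5 were high together, and PRMT7 lay with scramble and PRMT3. An exon of PWWP2A, a protein that binds the histone variant H2A.Z (chromosome 5, 159535552 to 159535621), stood at 0.35 in PRMT1 and 0.13 in PRMT7 knockdown, at 0.20 in scramble and at 0.10, 0.21, 0.16 and 0.29 in the others. Its 70 bases do not make whole codons, and the exon is annotated only in transcripts marked for nonsense-mediated decay. ZNF195, a zinc finger gene, had its exon at 0.26 in PRMT1 and 0.05 in PRMT7 knockdown, at 0.06 in scramble, and at 0.10, 0.10, 0.13 and 0.21 in the others. The authors' deposited table gave 0.125 for ANK2, 0.141 for PWWP2A and 0.123 for ZNF195.

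The exon of CALD1, the actin-binding protein caldesmon, stood at 0.28 in PRMT1 and 0.11 in PRMT7 knockdown, at 0.19 in scramble and at 0.07 to 0.18 in the other 4, so that PRMT1 was above all other columns. DDHD1, a phospholipase, had its exon at 0.85 against 0.69, with scramble at 0.66 and the others at 0.37 to 0.72. AMBRA1, an autophagy and cell cycle regulator, stood at 0.60 against 0.44, with scramble at 0.55 and the others at 0.37 to 0.67, so that neither knockdown lay outside the range of the rest. PLEKHM2, an adaptor between lysosomes and kinesin, stood at 0.45 against 0.29. Here both lay above scramble at 0.15, as did the other knockdowns at 0.31 to 0.45. An exon of 806 bases in SIX5, a homeobox factor, stood at 0.90 against 0.73, with scramble at 0.81. In the authors' deposited table the exon differed by 0.14 for CALD1, 0.117 for DDHD1, 0.153 for AMBRA1, 0.141 for PLEKHM2 and 0.203 for SIX5. A noncoding exon of MAPK6, an atypical MAP kinase, differed more there, at 0.316 in the authors' deposited table, than by MISO, where it stood at 0.16 in PRMT1, 0.05 in PRMT7 and 0.02 to 0.09 elsewhere.

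Among exons that were lower in PRMT1 knockdown by at least 0.1 in both tables, the largest MISO difference after the upstream exon of BPTF was that of an exon in the untranslated region of NAB1, a corepressor of EGR factors (chromosome 2, 191520703 to 191520879). It stood at 0.28 in PRMT1 and 0.54 in PRMT7 knockdown, at 0.38 in scramble, and at 0.25, 0.40, 0.57 and 0.34 in the knockdowns of PRMT3, PRMT4, PRMT5 and PRMT6. PRMT1 and PRMT7 lay on opposite sides of scramble. An exon of only 14 bases in EEF1D, a subunit of the elongation factor complex that recharges eEF1A, stood at 0.06 in PRMT1, scramble and PRMT6, at 0.27 in PRMT7, and at 0.11, 0.17 and 0.14 in PRMT3, PRMT4 and PRMT5. Only the PRMT7 column reached above 0.17. The authors' deposited table gave -0.16 for NAB1 and -0.237 for EEF1D, the latter larger than the -0.21 by MISO.

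THTPA, thiamine triphosphatase, had more differing events than any other gene, 11, all around the same region of chromosome 14. Its exon of 292 bases (24025952 to 24026243) stood at 0.16 in PRMT1 and 0.36 in PRMT7 knockdown, at 0.38 in scramble and at 0.28 to 0.42 in the others, with -0.125 in the authors' deposited table. PRMT1 was the lowest column by MISO. The 11 events overlap and share reads, with 8 lower and 3 higher in PRMT1, the latter all the same retained intron. Exons of STOML1, a stomatin-like protein (0.78 against 0.97), FAM204A (0.60 against 0.80) and CCDC32, in an event listed also under MRPL42P5 (0.54 against 0.76), were also lower in PRMT1, by -0.126, -0.108 and -0.127 in the authors' deposited table. The 24-base exon of FLNA, the actin crosslinker filamin A (chromosome X, 153585619 to 153585642), stood at 0.58 in PRMT1 and 0.70 in PRMT7 knockdown, at 0.61 in scramble and at 0.62 to 0.67 in the other 4. PRMT1 was thus the lowest and PRMT7 the highest of all 7 columns, and the authors' deposited table gave -0.113.

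**Figure D3:**
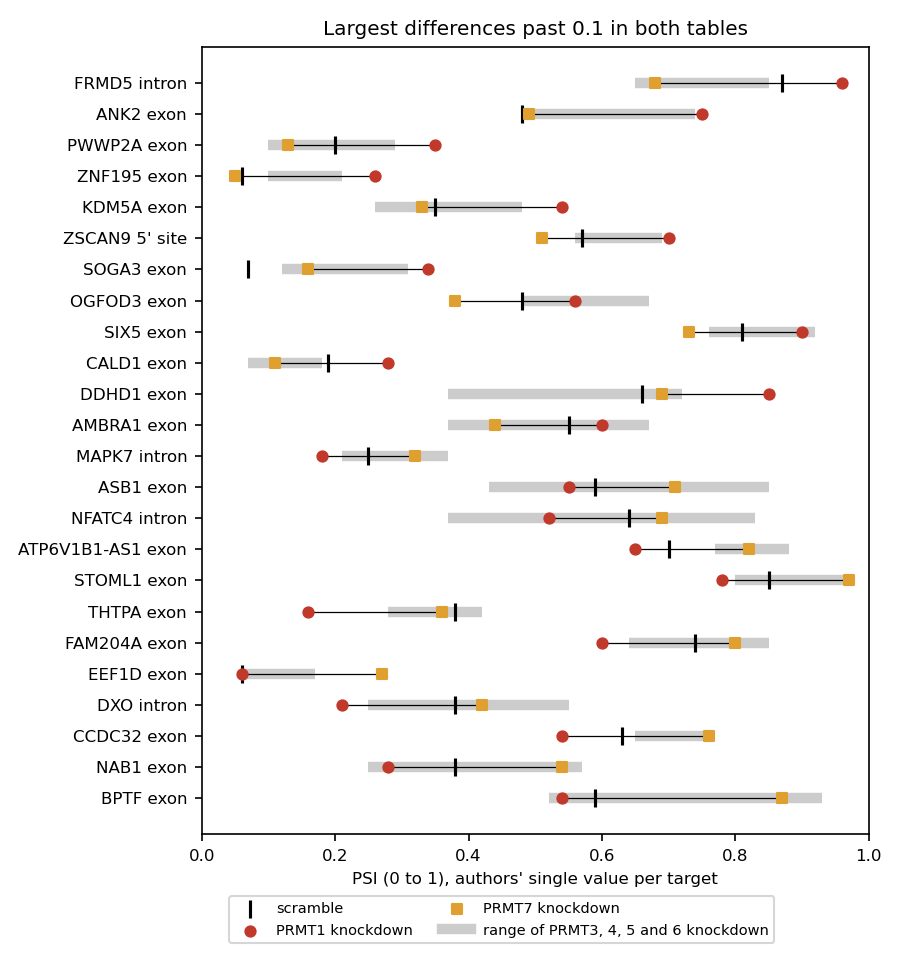
PSI (horizontal axis, 0 to 1) of the 12 largest higher and 12 largest lower events among those past 0.1 in both deposited tables, 1 per gene, with the authors' single value for PRMT1 (red circles), PRMT7 (yellow squares) and scramble (black ticks) and the range of the 4 other knockdowns (grey bars). For BPTF the PRMT7 value of 0.87 lies inside the grey bar, while for EEF1D (0.27) it lies outside.

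Intron retention separated by intron length. Of 807 introns above 200 bases, 20 were higher and 65 lower in PRMT1 knockdown, or 76.5% lower among those that differed. Of 345 introns of up to 200 bases, 23 were higher and 14 lower. Counted as distinct introns, the numbers were 17 and 59 above 200 bases and 21 and 14 below. Without any threshold, 241 of the longer introns had a positive and 421 a negative difference, and the shorter ones 144 and 134. Mean PSI of the longer introns was 0.510 in PRMT1, 0.524 in PRMT7 and 0.532 in scramble, and that of the shorter ones 0.514, 0.511 and 0.521. In the authors' deposited table, 194 of the matched longer introns were positive and 283 negative, and of the shorter ones 120 and 86. Over all 4251 introns listed there, of any length, 1913 were positive and 2113 negative. The share lower among differing introns was 67.5% of 40 above 200 and up to 500 bases, 83.3% of 24 above 500 and up to 1000, and 85.7% of 21 above 1000. Over all introns of these classes the mean differences, -0.0119, -0.0173 and -0.0142, did not grow steadily with length. In the authors' deposited table the means of the matched introns were -0.00649, -0.00374 and -0.00347, smallest in the longest class. PRMT4 (0.509) and PRMT6 (0.502) had means for the longer introns as low as that of PRMT1. The mean difference over the longer introns, -0.0141, is small beside the threshold for a single intron.

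**Figure D4:**
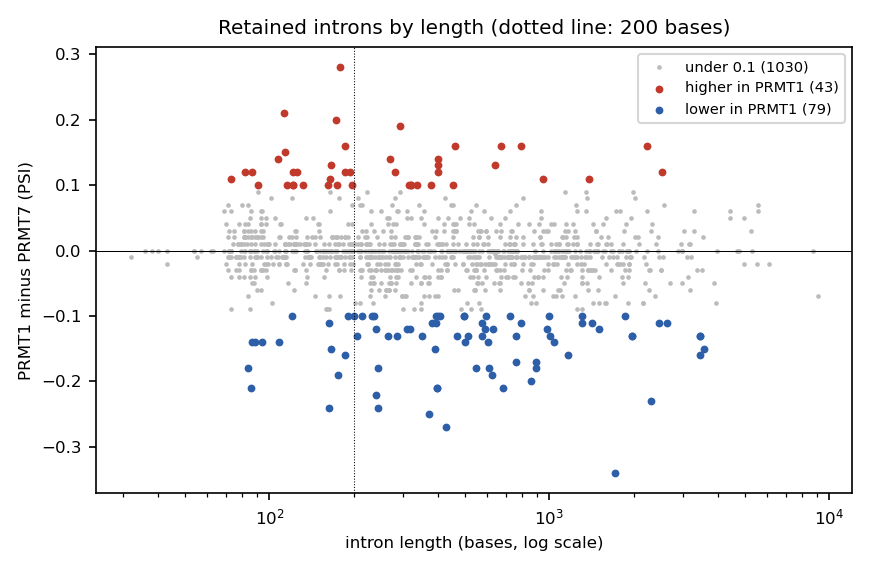
PRMT1 minus PRMT7 difference in PSI of 1152 retained introns (vertical axis) against intron length in bases (horizontal axis, log scale), with red points higher and blue points lower in PRMT1 by at least 0.1. To the right of the dotted line at 200 bases there are 65 blue and 20 red points, and to its left 14 blue and 23 red.

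Among single introns, that of FRMD5, a FERM domain protein (chromosome 15, 44166138 to 44166316, 179 bases between coding exons), stood at 0.96 in PRMT1 and 0.68 in PRMT7 knockdown, at 0.87 in scramble, and at 0.65, 0.79, 0.85 and 0.71 in the knockdowns of PRMT3, PRMT4, PRMT5 and PRMT6. PRMT1 was above all others, and the authors' deposited table gave 0.20. An intron of CDC16, a subunit of the anaphase-promoting complex, was also higher, at 0.65 against 0.53 with 0.139 in the authors' deposited table. NFATC4, a transcription factor of calcineurin signalling, had an intron of 759 bases at 0.52 in PRMT1 and 0.69 in PRMT7 knockdown, at 0.64 in scramble and at 0.83, 0.51, 0.74 and 0.37 in the others. PRMT4 and PRMT6 lay below PRMT1 there. DXO, a decapping exonuclease, had an intron of 86 bases at 0.21 against 0.42, with scramble at 0.38 and the others at 0.25 to 0.55. MAPK7, the kinase ERK5, stood at 0.18 against 0.32, with scramble at 0.25. The authors' deposited table gave -0.173 for NFATC4, -0.103 for DXO and -0.12 for MAPK7.

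An intron of EWSR1, the FET protein and a known PRMT1 substrate (chromosome 22, 29695271 to 29695588), was retained less in PRMT1 knockdown, at 0.73 against 0.85 in PRMT7, 0.88 in scramble and 0.77 to 0.90 in the others. PRMT1 was the lowest of the 7 columns, and the authors' deposited table gave -0.114. An intron of MAT2A, which makes the methyl donor S-adenosylmethionine and whose intron retention is known to respond to that donor, stood at 0.22 in PRMT1, 0.32 in PRMT7 and 0.25 in scramble. The authors' deposited table gave -0.118 for it, and PRMT3 knockdown had the highest value, 0.45. Introns of HNRNPH1 (0.21 against 0.34) and HNRNPH3 (0.59 against 0.75) were lower in PRMT1 and passed 0.1 by MISO only, with -0.068 and -0.077 in the authors' deposited table.

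Genes for SR proteins and TRA2, the activators that bind exonic enhancers, had differing events in 7 of 11 measured genes (63.6%) against 12.7% of all genes, 2 higher and 5 lower in PRMT1. These genes hold several events each, and by event the share was 20.5% against 7.11%, or 30% against 15.5% among events with a mean PSI between 0.05 and 0.95. TRA2A had 3 of them, all over the same stretch of chromosome 7 (23561460 to 23562051). Its exon of 301 bases, outside the coding sequence, stood at 0.25 in PRMT1 and 0.45 in PRMT7 knockdown, at 0.20 in scramble, and at 0.27, 0.21, 0.23 and 0.15 in PRMT3, PRMT4, PRMT5 and PRMT6. PRMT7 was the column apart, and the authors' deposited table gave -0.079. The SRSF5 intron (chromosome 14, 70238262 to 70238633) stood at 0.24 in PRMT1 and 0.49 in PRMT7 knockdown, at 0.50 in scramble, and at 0.47, 0.29, 0.23 and 0.58 in the others. PRMT1, PRMT4 and PRMT5 were low together. Introns of SRSF1 (0.23 against 0.33) and SRSF2, the latter listed also under MIR636 (0.22 against 0.32), and an exon of SRSF7 (0.19 against 0.29) were at the threshold. Exons of SRSF11 (0.22 against 0.08) and SRSF4 (0.40 against 0.30) had higher MISO values in PRMT1, with -0.003 and -0.001 in the authors' deposited table. Of the 5 events of this group matched in the authors' deposited table, 3 had the same sign.

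The kinases that phosphorylate SR proteins had 2 of 7 genes (28.6%) with a differing event, against 12.7% of all genes. SRPK1 had an exon at 0.53 against 0.70, which the authors' deposited table put at 0.006, and SRPK2 an exon at 0.17 against 0.07, with 0.035 there. Among hnRNP and FET genes, 6 of 27 (22.2%) had a differing event, 1 with a higher and 6 with a lower one, but by event the share was 7.45%, near the 7.11% over all events. The alternative exon of HNRNPD stood at 0.73 in PRMT1, 0.66 in PRMT4 and 0.99 to 1 in the other 5 columns, but the authors' deposited table gave -0.001 between PRMT1 and PRMT7. Other splicing regulators had 6 of 28 genes (21.4%) with a differing event, and 8.04% by event. QKI, an RNA-binding regulator of exon choice, had an alternative 3' splice site at 0.22 in PRMT1 and 0.45 in PRMT7 knockdown, with 0.19 to 0.27 in the other 5 columns and -0.03 in the authors' deposited table. Introns of QKI went the other way by MISO, at 0.71 against 0.55 and 0.48 against 0.37, with -0.089 and -0.004 in the authors' deposited table. An intron of RBM25, a spliceosome-associated activator, stood at 0.30 against 0.46, with PRMT3 at 0.48.

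Of 29 measured genes of the core spliceosome, 1 (3.45%, against 12.7% of all genes) had a differing event, an intron of USP39 at 0.83 against 0.94, for which the authors' deposited table gave 0.004. By event this was 1.96% of 51 events against 7.11% of all events, and 5.88% against 15.5% among the 17 with a mean PSI between 0.05 and 0.95. RNA helicases had 5 of 27 genes (18.5%), 1 with a higher and 4 with a lower event, and 3' end processing and decay genes 4 of 39 (10.3%). By event the shares were 7.32% and 4.44%, near and below the 7.11% over all events. In the decay group an exon of CNOT4, a ubiquitin ligase of the CCR4-NOT complex, stood at 0.27 against 0.42, with scramble and the lowest other knockdown at 0.37 and -0.079 in the authors' deposited table.

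Ankyrin, spectrin and EPB41 family genes, which build the cortical skeleton under the membrane, were listed with other cytoskeletal genes such as ADD3, DST and PLEC. This list had differing events in 7 of 13 measured genes (53.8%) against 12.7% of all genes, 5 higher and 2 lower in PRMT1. ADD3, DST and PLEC were among the higher ones. By event the share was 15.2% against 7.11%. Besides ANK2, an exon of EPB41L3 stood at 0.79 in PRMT1 and 0.98 in PRMT7 knockdown, with 0.93 to 0.97 in the other 5 columns. PLEC, the cytolinker plectin, had an exon of 3381 bases at 0.51 against 0.34. EPB41L3 differed by -0.038 in the authors' deposited table and PLEC by -0.005, the latter with the opposite sign. Of the 6 matched events of the list, 5 had the same sign in the authors' deposited table. Kinesins and microtubule proteins had 6 of 34 genes (17.6%) and by event 7.95%, near the share over all events, among them MAP9, whose 3' splice sites lie 3 bases apart and stood at 0.53 against 0.28.

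The mitosis and cell cycle list takes in the CDC42 effector gene CDC42EP3 by its name. In this list, 14 of 98 genes (14.3%) had a differing event, near the 12.7% over all genes. The largest was in CDC14B, a phosphatase, whose exon of 117 bases stood at 0.66 in PRMT1 and 0.28 in PRMT7 knockdown in one event and at 0.76 and 0.42 in another with other flanking exons. PRMT3 (0.25 and 0.41) lay with PRMT7. The authors' deposited table gave 0.096 for the first and -0.004 for the second. Another exon of CDC14B, of 144 bases, was lower in PRMT1 by MISO, at -0.11, with -0.057 in the authors' deposited table. The exons of 117 and 144 bases are also listed as mutually exclusive, at -0.23. Which of them that value counts was not established, so its sign gives no direction of inclusion. An exon of NIN, the centrosomal protein ninein, stood at 0.54 against 0.39, with PRMT5 at 0.69. DNA repair genes had 9 of 58 (15.5%) and apoptosis genes 1 of 23 (4.35%), against 12.7% of all genes. Translation factors and ribosomal proteins had 9 of 88 (10.2%), 4 with a higher and 5 with a lower event. By event the shares of these lists were 6.33%, 3.53% and 3.94%, against 7.11% over all events. The translation list takes in the kinase-like gene RPS6KL1 by its name. By MISO, an exon of RPS2, a small subunit protein, stood at 0.46 against 0.67, with -0.004 in the authors' deposited table.

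Neither targeted gene has an event in the comparison. An alternative 5' splice site of PRMT1 has a value of 0.02 to 0.04 in 6 columns and none in the PRMT1 column, so it is not among the 10358. For PRMT7, 4 events are listed, each with a value for PRMT6 and 1 also for PRMT4, and none has a value for PRMT7 or scramble. The files do not say why a value is missing. Of the other PRMT genes, an exon of PRMT2 stood at 0.80 in PRMT1 and 0.87 in PRMT7 knockdown, with scramble at 0.95, an exon of PRMT9 at 0.93 and 0.86, and the events of PRMT5 differed by 0.02 at most. None reached 0.1. Among cofactors, the exon shared by the near-identical genes SMN1 and SMN2, whose reads cannot be told apart, stood at 0.64 against 0.51, with 0.024 in the authors' deposited table.

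Alternative splice sites gave 5 events past 0.1 in the same direction in both tables, all of them 5' sites and 1 of them in BPTF. ZSCAN9, a zinc finger gene, stood at 0.70 in PRMT1 and 0.51 in PRMT7 knockdown, with scramble at 0.57 and the others at 0.56 to 0.69. STOX1, a winged helix protein, stood at 0.96 against 0.81, with scramble at 0.97 and the other knockdowns at 0.78 to 0.91. Every knockdown was thus below scramble, PRMT1 the least and PRMT3 the most. The acetyltransferase gene NAA60 stood at 0.36 against 0.25, between the extremes of PRMT3 (0.15) and PRMT4 (0.47). ADPRM, a manganese-dependent phosphatase, stood at 0.11 against 0.23. In the authors' deposited table they differed by 0.132 for ZSCAN9, 0.134 for STOX1, 0.105 for NAA60 and -0.105 for ADPRM. Mutually exclusive exons could not be matched to the authors' deposited table, so their 66 differing events rest on MISO alone.

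Length and annotation of the cassette exons were not used to choose them. Exons of 300 bases or more made up 20.9% of those lower in PRMT1 and 9.0% of those higher, against 7.45% of all cassette exons. Of 451 such exons 18 were higher and 36 lower, and in the authors' deposited table the matched ones were positive in 132 and negative in 174 cases. Exons above 30 and under 300 bases had 178 higher and 133 lower, and microexons of up to 30 bases 4 and 3. A length in whole codons was held by 49.2% of the differing exons and 41.6% of all. By structure, 5538 of the 6050 exons were found in GENCODE, and 181 of the 3333 fully coding exons differed (5.43%), against 42 of 574 in untranslated regions (7.32%) and 31 of 514 found only in decay-annotated transcripts (6.03%).

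Each knockdown was also placed against the other columns. In 237 of the 736 events only the PRMT1 value lay outside the range of the other 5 columns, in 167 only the PRMT7 value, in 77 both, and in 255 neither. The 736 were chosen for a gap between the PRMT1 and PRMT7 columns, so values outside the range are likely among them. The same counts over all 10358 events were not taken. The excess for PRMT1 was not seen at every setting: at 0.2 PSI against the 4 other knockdowns, 27 events had only PRMT1 and 26 only PRMT7 outside, and on the lower side 13 and 16. PRMT1 was farther from scramble in 409 events, PRMT7 in 306, and both were equally far in 21. By size, 270 events had PRMT1 but not PRMT7 at least 0.1 from scramble, 189 had PRMT7 but not PRMT1, 39 had both on the same side, and 226 had neither. The count of 736 was the fifth lowest of the 15 couples of knockdowns, which ran from 608 for PRMT1 and PRMT4 to 1138 for PRMT3 and PRMT6. By the rMATS values of the matched events, taken from the authors' deposited table, this couple had the lowest count of the 15, at 119 of 6562 events (1.81%). Of every event listed in the authors' deposited table, 8.71% passed 0.1.

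Direction was compared with the authors' deposited table of rMATS differences, in which the control cancels when the PRMT1 and PRMT7 columns are subtracted. Its sign is not stated and was read as control minus knockdown because both tables then correlate positively, so a majority of equal signs follows from that reading and is no independent check. Read the other way, the 93 events below would share the sign and the 390 would not. The 487 differing MISO events matched in the authors' deposited table are 7.42% of all matched ones, and of them 390 (80.1%) had the same sign, 93 the opposite sign and 4 a value of 0. This share was 78.0% for MISO sizes from 0.1 to 0.15 and 87.8% from 0.2 to 0.25. Sizes were smaller in the authors' deposited table: the median size of the 487 events was 0.12 by MISO and 0.037 there. Only 51 events in 47 genes, 27 higher and 24 lower in PRMT1, passed 0.1 in the same direction in both, of which 36 were cassette exons, 10 retained introns and 5 alternative 5' splice sites. In 22 of the 51 only PRMT1 lay outside the other 5 columns and in 8 only PRMT7, among events again chosen for a gap between PRMT1 and PRMT7. Both tables come from the same libraries, so the second is no repeat in other cultures.

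**Figure D5:**
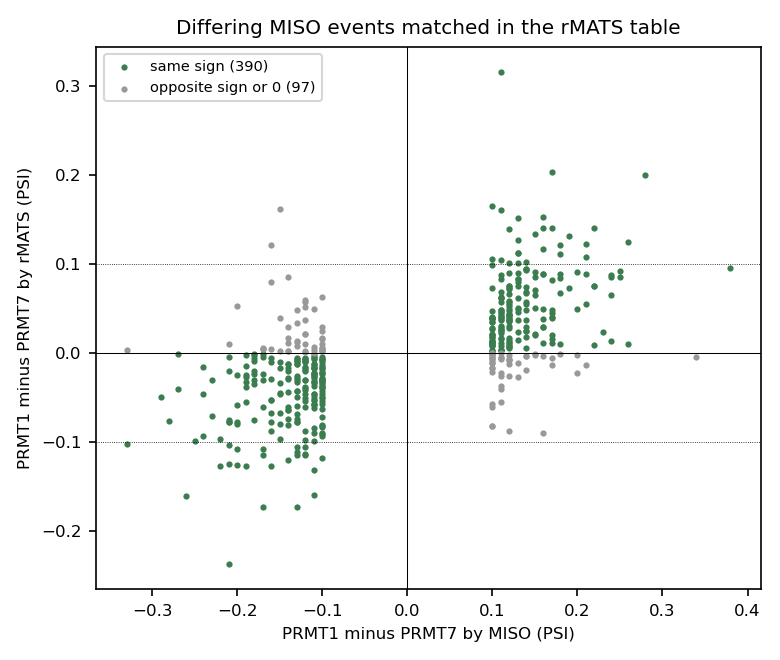
Difference between PRMT1 and PRMT7 in the authors' deposited table of rMATS differences (vertical axis, PSI) against the MISO difference (horizontal axis, PSI) for the 487 differing MISO events matched there, with dotted lines at 0.1 in either direction. Green points (390) have the same sign in both and grey points the opposite sign (93) or 0 (4), and most green points lie inside the dotted lines.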

How the data were processed

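RNA was sequenced as stranded poly(A) paired-end libraries, per the labels' protocols, after handling of reads with cutadapt 1.18 and HISAT on GRCh37, per the submitters' processing notes. For MISO, rMATS and HISAT no version or setting is stated in those notes. The authors deposited MISO values of PSI as a fraction, nearly all to 2 decimals, and rMATS differences in PSI, 1 column per target. How 2 hairpins became 1 column is not stated, and depth is unknown.

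Events with a value in all 7 columns were used, as PRMT1 minus PRMT7, called at 0.1 PSI by size alone. Events were matched between tables by their splice junctions. The rMATS sign was read as control minus knockdown, the reading under which both tables correlate positively across matched events (r = 0.419 for this difference, across events that are not independent). Cassette exons were matched to GENCODE release 29 (GRCh38) by chromosome, strand, exon length and both intron lengths, of which 5529 had 1 position only, and introns by gene and length. Calling was checked on planted differences without noise, and matching by writing event names in the other format and reading them back. Neither check covers noise between libraries or a wrong reading of the coordinates.

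Members, the 16 gene lists and the naming rule were chosen with earlier results of these data known. The rule took the 12 largest events in each direction past 0.1 in both tables, the 4 largest by MISO, up to 4 genes per list, the 2 largest per type and direction, the PRMT genes, and up to 10 events on opposite sides of scramble. The text gives a part of these, and names outside it (such as SRSF2, SRSF4, SRSF7, HNRNPH1, FLNA, PLEKHM2 and the second events of a gene) were chosen after their values were seen. limma and leaving out hairpins, planned where values per library exist, were not run, since the tables hold 1 column per target. From the MISO file, 1 emptied line was left out. Tools were scipy 1.17.1, pandas 2.3.3 and numpy 2.4.6 under Python 3.11.15, with plots from matplotlib 3.10.9.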

Additional observations from a re-analysis of the deposited data

Results flagged for a closer look

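In 12 events the PRMT1 and PRMT7 values lay on opposite sides of scramble by at least 0.1 each, 7 with PRMT1 and 5 with PRMT7 on the higher side. Each side is a single value against the same scramble value, and the difference was not tested. The 10 largest, as PRMT1 minus PRMT7, follow.

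With PRMT1 above and PRMT7 below scramble stood an exon of CDC14B (0.38), alternative 3' splice sites of LRRC14 (0.28), PREPL (0.27) and MAP9 (0.25), an alternative 5' splice site of DSP, the desmosomal linker desmoplakin (0.22), and an exon of the transcription factor SP3 (0.21). The PREPL site, for example, stood at 0.72 in PRMT1, 0.57 in scramble and 0.45 in PRMT7. With PRMT1 below and PRMT7 above scramble stood exons of MIS12, a kinetochore protein (-0.35), and NAB1 (-0.26), an alternative 5' splice site of FBXL19 (-0.33) and an intron of ARGLU1, a splicing coactivator (-0.23). The MIS12 exon stood at 0.55 in PRMT1, 0.79 in scramble and 0.90 in PRMT7, with the other knockdowns at 0.66 to 0.72. Of the 12 events, 5 were matched in the authors' deposited table, where 4 had the same sign of the difference and 3 lay on opposite sides of the control.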

How the results depend on the processing

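The count of 736 differing events was 734 with a mean PSI between 0.05 and 0.95 and 951 with values required in the PRMT1 and PRMT7 columns only. It was 86 at a threshold of 0.2, 4416 on a logit scale, where steps of 0.01 near 0 and 1 pass the threshold, 119 on matched events of the authors' deposited table of rMATS differences and 6366 of 73049 over all its events. The share lower in PRMT1 stayed within its interval for all types together and for cassette exons. It moved for retained introns to 80.0% at 0.2 (15 events) and 52.0% over all rMATS introns (211 higher, 229 lower), but 61.1% on the matched ones (18 events). For small groups it moved to 33.3% for 3' sites (3 events) and 33.3% for 5' sites (9 events) on matched rMATS events, and at 0.2 to 66.7% for 5' sites (6 events) and 75.0% for mutually exclusive exons (4 events). With the range of the 4 other knockdowns, 236 events had only PRMT1 and 187 only PRMT7 outside. The cause of these moves was not tested. Among 132 events of the naming rule, of genes with many events or past 0.1 in both tables that were matched in the rMATS table, 56 kept their side of 0.1, 61 were under it and 15 that passed 0.1 by MISO had the opposite sign. Of the 56, 51 were in this set because they pass 0.1 in both tables, and the rest are PRMT gene events under 0.1 by MISO. The count of 56 thus follows from the choice of events and is no measure of stability. An intron of PRMT5, at -0.02 by MISO and 0.022 in the authors' deposited table, also differed in sign but passed 0.1 in neither. In the authors' deposited table these 15 stood at 0.004 (FBXL19), 0.053 (RBBP5), 0.006 (SRPK1), 0.005 (ERCC3), 0.04 (PTBP2), 0.011 (EDC4), 0.004 (USP39), 0.007 (DDX39B), -0.004 and -0.089 (QKI), -0.04 (DNMT3B), -0.006 (RPAIN), -0.003 (SRSF11), -0.005 (PLEC) and -0.004 (CDC14B). No paired analysis was possible because the tables hold 1 column per target. Leaving out a hairpin could not be run for the same reason, and depth is unknown.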

Other observations

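Several genes held a run of differing events over a single stretch. NRM, a nuclear envelope membrane protein, had 5 events, all higher in PRMT1, among them an exon of 177 bases at 0.65 in PRMT1 and 0.40 in PRMT7 knockdown, where the other 5 columns ran from 0.49 to 0.66 and the authors' deposited table gave 0.086. RANGRF, a Ran-binding factor, had 4 events, all lower in PRMT1. Its intron of 398 bases stood at 0.70 in PRMT1 and 0.91 in PRMT7 knockdown, with 0.72 to 0.85 in the rest and -0.077 in the authors' deposited table. ATXN2L, an RNA-binding protein of stress granules and a methylated PRMT1 substrate, had 6 events, all lower in PRMT1. An intron event of ATXN2L stood at 0.74 in PRMT1 and 0.93 in PRMT7 knockdown, with 0.93 to 0.97 in the other columns, and the authors' deposited table gave -0.032. ADARB1, an RNA-editing deaminase, had 4 overlapping intron events, all at -0.13 by MISO, which the authors' deposited table put at -0.012 and -0.077. ATG13, a subunit of the kinase complex that starts autophagy, had 3 exons outside the coding sequence that were all higher in PRMT1, by 0.14, 0.14 and 0.12, with 0.055, 0.095 and 0.067 in the authors' deposited table. These genes were chosen for their number of events after the values were seen, and events of a gene share reads.

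Of the 86 events with a MISO difference of at least 0.2, some had no match in the authors' deposited table. The event of SLC22A5, at 0.38 in PRMT1 and 0.88 in PRMT7 knockdown, spans 5924 bases and was low in PRMT4 (0.20), PRMT6 (0.43) and PRMT3 (0.49) too. An intron of ZNF248 stood at 0.42 against 0.76, and a 5' splice site of the POLR2M and GCOM1 locus at 0.89 against 0.54. None of these 3 was matched there.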
